A study of Mus musculus with 3 samples.

Results

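The Sprouty genes Spry1, Spry2, Spry3 and Spry4 and the Spred genes Spred1, Spred2 and Spred3 were taken by gene name from a table of 43472 genes, and all 7 were found once. Their transcripts were measured by RNA-seq in primary fibroblasts from the tail tips of C57BL/6 mice. A scratch was made in each cell layer as an in vitro wound, and the cells received soluble micrograft (MG), a cell-free extract of mouse skin diluted 1:10 in growth medium, together with the MEK inhibitor PD0325901 (1 μM) for 5 h. The 3 libraries are replicates 1, 2 and 3 of this single MG + PD0325901 condition. It is not stated whether they came from separate cultures or animals, so the spread between them may be technical, and neither the age nor the sex of the mice was given in the sources used here. Untreated and MG-only cells were not analysed here, so no effect of the inhibitor was computed and every comparison below is between replicates or between genes.

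Sprouty and Spred proteins are negative feedback inhibitors of receptor tyrosine kinase signaling. When a growth factor receptor activates Ras, Raf, MEK and ERK, ERK output raises the transcription of several of these genes, and their proteins then restrain the same cascade. Sprouty proteins share a cysteine-rich C-terminal domain with Spred proteins, and Spred proteins also carry an EVH1 domain through which they bring the Ras GTPase-activating protein neurofibromin to the membrane. Fibroblasts respond through this cascade to growth factors such as FGF, PDGF and EGF.

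The libraries held 22540518, 27037783 and 17244505 reads on genes in replicates 1, 2 and 3. A gene was called detected when it had at least 10 normalized counts, that is, read counts divided by 1 size factor per library, in every replicate. By this minimum 12204 of the 20322 genes with reads, or 60.1%, were detected. All 8 fibroblast markers were detected, with a 17.6-fold range for Lum (5073, 289 and 1164 normalized counts), while Krt5, Krt14, Krt15 and Krt1 of keratinocytes summed to 2.37 normalized counts or fewer in every library, with Krt15 and Krt1 at 0 reads. No endothelial marker of 4 was detected, although Tek had 185 normalized counts in replicate 2 against 6.95 and 2.37 in replicates 1 and 3. Of 5 skeletal muscle markers 2 were detected, Acta1 at 2429, 7286 and 5586 and Des at 212, 1208 and 77.0 normalized counts. Myod1 had 0 reads in every library, Myog had 1, 0 and 0 reads and Myh3 had 2, 0 and 3. The part of RNA from other cell types in the results was not tested. Replicate 2 stood apart from the others by more than 2-fold in 10.1% of 13154 genes with a mean of at least 10 normalized counts, against 4.26% for replicate 1 and 3.58% for replicate 3. Results that rest on 1 replicate are therefore given with each library's value.

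The Sprouty genes each have 1 coding exon, whereas the coding parts of Spred1 and Spred2 are split over 7 exons and that of Spred3 over 5 in the GENCODE M21 annotation of GRCm38. Spry1 lies on chromosome 3 from 37639947 to 37644598 (plus strand) and Spry2 on chromosome 14 from 105891947 to 105896819 (minus strand). Spred1 lies on chromosome 2 from 117121374 to 117182279 (plus strand) and Spred2 on chromosome 11 from 19924375 to 20024026 (plus strand). Spred3 lies on chromosome 7 from 29158829 to 29170411 (minus strand). Spry3 is on a scaffold outside the assembled chromosomes in this build. The position of Spry4 is not given here.

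Upstream sequences are shown for Spry1 and Spry2, lowest in replicate 1 as were Spry3 and Spred2, and for Spred3, the member of smallest spread. Each is the 250 bases before the RefSeq start of transcription (GRCm38.p6), and capitals mark GGGCGG on either strand, the core of the GC box bound by SP1. Spry1 is read from chr3:37639697-37639946 (plus strand), Spry2 from chr14:105896820-105897069 (minus strand) and Spred3 from chr7:29168648-29168897 (minus strand), which lies inside the longer GENCODE model of that gene.
Spry1: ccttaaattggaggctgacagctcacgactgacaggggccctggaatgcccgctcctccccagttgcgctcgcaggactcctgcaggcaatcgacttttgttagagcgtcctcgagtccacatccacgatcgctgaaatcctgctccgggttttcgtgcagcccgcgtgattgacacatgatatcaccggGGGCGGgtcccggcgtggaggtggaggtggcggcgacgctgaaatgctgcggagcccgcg
Spry2: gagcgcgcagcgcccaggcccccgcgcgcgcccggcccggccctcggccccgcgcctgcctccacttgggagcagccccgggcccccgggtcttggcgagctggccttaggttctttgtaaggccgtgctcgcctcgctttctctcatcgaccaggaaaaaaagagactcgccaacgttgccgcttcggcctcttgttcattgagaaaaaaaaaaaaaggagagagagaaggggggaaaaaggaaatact
Spred3: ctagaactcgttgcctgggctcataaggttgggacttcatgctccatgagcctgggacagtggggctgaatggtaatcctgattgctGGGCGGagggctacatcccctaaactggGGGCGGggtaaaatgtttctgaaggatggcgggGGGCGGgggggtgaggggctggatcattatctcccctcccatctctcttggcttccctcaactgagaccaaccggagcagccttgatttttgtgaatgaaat
The GC box core was found 3 times before Spred3, once before Spry1 and not before Spry2, and 32.7% of 32851 mouse promoter windows of this length held it. The windows of Spry1 and Spry2 had the same GC content, 62.4%, and the same number of CpG pairs, 23, against a GC content of 55.6% and 6 CpG pairs for Spred3. The windows of Spred1 and Spred2, not shown, had 70.8% and 31 CpG pairs and 56% and 12 CpG pairs. Over all windows the medians were 52.4% and 6. The ETS site CCGGAA, the AP-1 site TGANTCA, the CRE site TGACGTCA, the TATA box TATAAA and the CArG box of SRF were searched on both strands as well. None of these 5 motifs was in the windows of Spry1, Spry2, Spred1, Spred2 or Spred3, and they were in 12.0%, 6.75%, 1.55%, 12.4% and 1.47% of all windows. GGGCGG was also found before Spred1 and Spred2. No match says only that these letters are not in the window. Shorter ETS sequences such as GGAA were not searched. Promoters of Spry3 and Spry4 were not analysed here.

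All 7 genes had reads in every library, and 6 of them were detected by the minimum of 10 normalized counts. Spry1, which encodes a Sprouty known for its part in kidney development and in restraining FGF signaling, was the exception. Its level was 4.34, 26.1 and 26.1 normalized counts in replicates 1, 2 and 3. These rested on 5, 37 and 22 reads, and the 95% Poisson interval of the lowest value was 1.41 to 10.1 normalized counts. Replicate 1 was thus the low library and replicates 2 and 3 could not be told apart, with a ratio of replicate 3 to replicate 2 of 1.00 (95% interval 0.562 to 1.74). In the annotation, 24.4% of the exonic bases of Spry1 overlap Gm42922, an unverified transcript on the opposite strand that was not analysed here. Whether reads were counted by strand is not given, so reads of the pair cannot be told apart.

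Spry2, the Sprouty that binds the ubiquitin ligase CBL, was measured at 228, 392 and 375 normalized counts in the same order of replicates. The mean came to 331 ± 90.3 (SD, n = 3), with replicate 1 the lowest and the other replicates close together. Spry4, another Sprouty induced by growth factors, was measured at 197, 142 and 415, with a mean normalized count of 251 ± 144 (SD, n = 3). Here replicate 3 was the highest and replicate 2 the lowest, an order unlike that of Spry2. Spry3, the least studied Sprouty, reached 46.0, 70.5 and 52.2 normalized counts, averaging 56.2 ± 12.7 (SD, n = 3). It was lowest in replicate 1 and highest in replicate 2, as were Spry2 and Spred2. Its 53, 100 and 44 reads left a counting error of 15.1% in replicate 3, the library with the fewest.

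The Spred genes were expressed at similar levels in all replicates. Spred1, the gene mutated in Legius syndrome, reached 678, 791 and 603 normalized counts, averaging 691 ± 94.3 (SD, n = 3). Spred2, a close relative that also binds neurofibromin, was lower at 329, 390 and 351 normalized counts, averaging 357 ± 31.1 (SD, n = 3). Spred3, whose protein lacks a functional KIT-binding domain, gave 695, 724 and 678 normalized counts, averaging 699 ± 23.1 (SD, n = 3). Replicate 2 was the highest library for each Spred gene. It was above the lowest replicate by 1.31-fold for Spred1, 1.19-fold for Spred2 and 1.07-fold for Spred3. An exon stretch of 3.25% of Spred3 overlaps Ggn on the opposite strand, a gene at 19.1, 15.5 and 21.3 normalized counts. Over all 7 genes, 5 were highest in replicate 2, 2 in replicate 3 and 0 in replicate 1, against 40.6%, 27.9% and 31.5% of detected genes. Replicate 1 was the lowest for 4 of them, replicate 2 for 1 and replicate 3 for 2, against 34.5%, 37.3% and 28.3%. Both counts include Spry1, which was not detected. It is counted as highest in replicate 3, although replicates 2 and 3 both had 26.1 normalized counts.

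**Figure D1:**
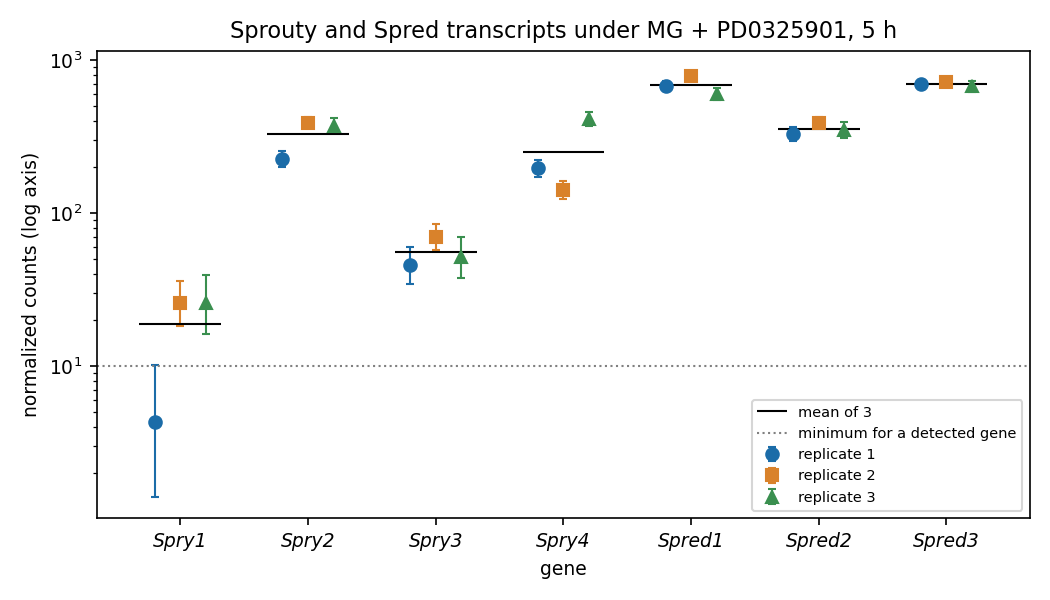
Normalized counts (log axis) of the 7 genes in replicates 1, 2 and 3 of the MG + PD0325901 condition, with 95% Poisson intervals of counting error as bars and the mean of the 3 replicates as a line. Spry1 falls below the dotted minimum of 10 in replicate 1 only, Spry4 is highest in replicate 3, and the 3 Spred genes sit close to their means.

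Reads collect in proportion to transcript length, so levels were compared between genes as normalized counts per kb of exon. Exon lengths came from GENCODE M21. The annotation used for counting is not given, so a length may not match the exons counted. On the per kb scale Spry2 had the highest mean, 159 ± 43.3, followed by Spred3 with 112 ± 3.72 and Spred1 with 102 ± 13.9 (SD, n = 3). Spred2 had 77.2 ± 6.72, Spry4 52.9 ± 30.3, Spry3 12.9 ± 2.92 and Spry1 6.48 ± 4.32 normalized counts per kb (SD, n = 3). The median of 11623 detected genes with a known length was 107 per kb, so Spry2, Spred3 and Spred1 lay near the middle of the expressed genes. Their percentiles among these genes were 59.9, 51.1 and 48.5, and that of Spry3 was 9.92 (Spry1, not detected, would be at 4.09).

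Neighbours in this order were not always separated by the spread between replicates. Spry2 was above Spred3 in 2 of 3 libraries, with 109 against 112 per kb in replicate 1, 188 against 116 in replicate 2 and 179 against 109 in replicate 3. Spred3 was above Spred1 in 2 of 3 libraries and their ranges overlapped, as did those of Spred2 and Spry4, where Spry4 was the higher in replicate 3 with 87.2 against 76.0 per kb. Spred1 was above Spred2, Spry4 above Spry3 and Spry3 above Spry1 in 3 of 3 libraries, without overlap of their ranges. An exact paired permutation test on 3 libraries cannot give a p-value below 0.25, so none was computed. The lead of Spry2 depended on the length used. With the longest transcript of each gene in place of all annotated exons, Spred3 had 172 ± 5.70 per kb (SD, n = 3) and passed Spry2, which stayed at 159 ± 43.3.

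**Figure D2:**
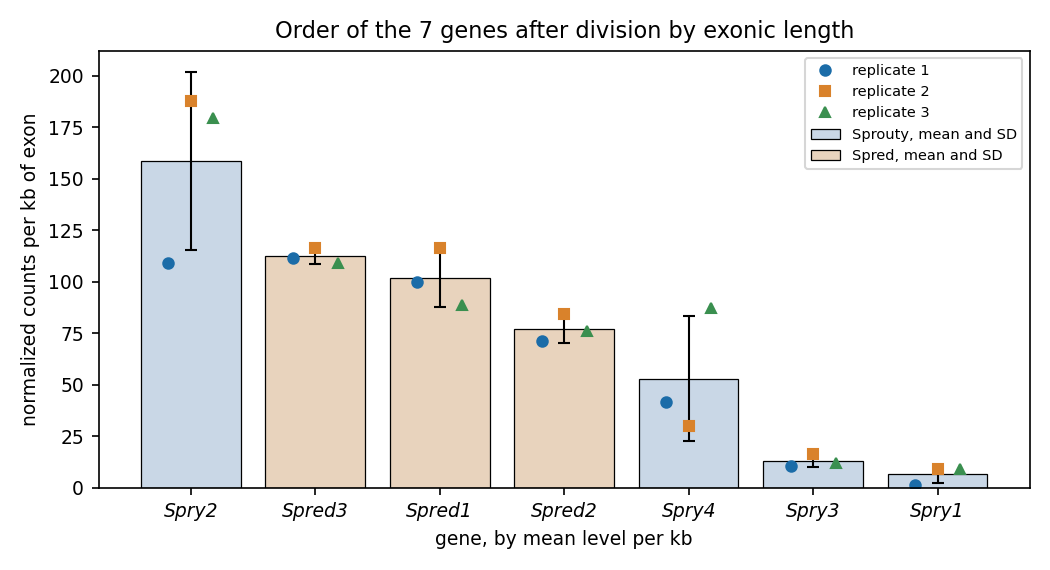
Normalized counts per kb of exon for the 7 genes, ordered by mean, with bars for the mean of 3 replicates, error bars for the SD and points for the replicates. Spry2 leads with a mean of 159 but falls to 109 in replicate 1, and Spry3 and Spry1 lie far below the others.

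Within each library the balance between the families differed. The Sprouty genes summed to 163, 243 and 288 normalized counts per kb in replicates 1, 2 and 3, and the Spred genes to 283, 317 and 274. The ratio of Spred to Sprouty was 1.74, 1.31 and 0.952, so with all annotated exons as the length Spred transcripts were in excess in replicates 1 and 2 and not in replicate 3. With the longest transcript the ratio was 2.2, 1.6 and 1.2, above 1 in replicate 3 too, so its direction there depended on the length. Spry2 alone made up 67.1%, 77.3% and 62.4% of the Sprouty sum, and Spry4 25.5%, 12.3% and 30.3%. Spry2 was 2.63, 6.27 and 2.06 times Spry4 per kb, most in replicate 2. Inside the Spred family the shares were steadier, with 39.5%, 36.7% and 39.8% for Spred3 and 35.3%, 36.7% and 32.5% for Spred1.

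The spread between replicates was then measured as the SD of log2(normalized count + 1). It was 0.05 for Spred3, 0.12 for Spred2 and 0.20 for Spred1, all below the median of 0.30 over the 12204 detected genes. For the Sprouty genes it was 0.31 in Spry3, 0.43 in Spry2, 0.79 in Spry4 and 1.35 in Spry1. Among detected genes these values ranked from percentile 2.06 for Spred3 to percentile 91.2 for Spry4 (Spry1, below the minimum, would be at 98.3). Every Sprouty value was above every Spred value with all 3 libraries, but this order rested on replicate 1. Without replicate 1 the SD was below 0.01 for Spry1 and 0.05 for Spry2, against 0.28, 0.11 and 0.07 for Spred1, Spred2 and Spred3. Without replicate 2 that of Spry3 was 0.13, and without replicate 3 that of Spry4 was 0.33. Counting error also contributed unequally. At the smallest read number of each gene it was 44.7% for Spry1, 15.1% for Spry3, 7.04% for Spry4 and 6.18% for Spry2, and 4.18% to 5.81% for the Spred genes. From lowest to highest replicate the range was 6.01-fold for Spry1 and 2.91-fold for Spry4. It was 1.72-fold for Spry2 and 1.53-fold for Spry3, and 1.31-fold, 1.19-fold and 1.07-fold for Spred1, Spred2 and Spred3. Of all detected genes, 22.0% had a range of more than 2-fold, and so had 2 of the 7 members, Spry1 and Spry4, of which Spry1 was not detected in every library.

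**Figure D3:**
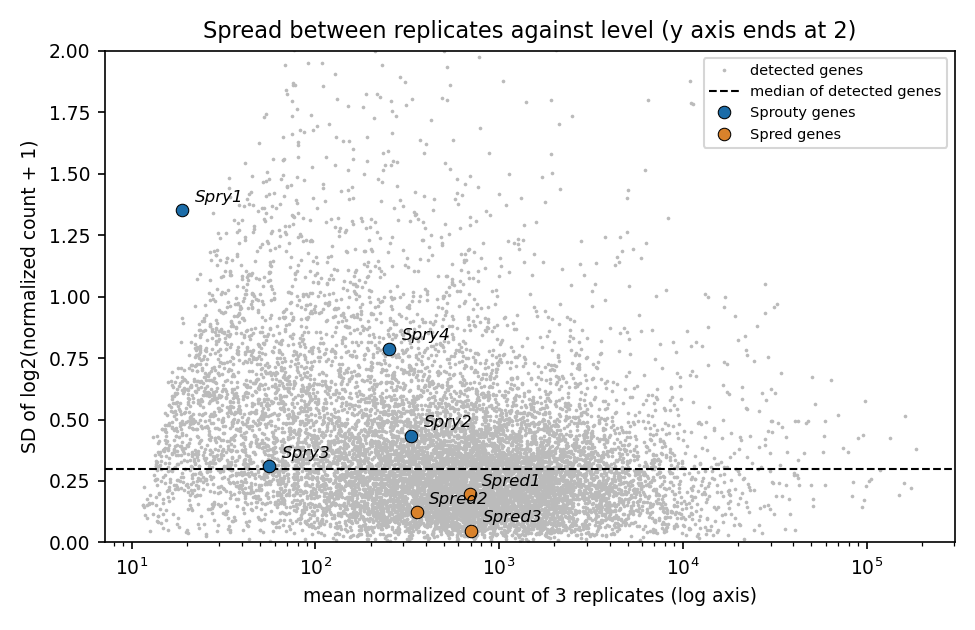
SD of log2(normalized count + 1) between the 3 replicates against the mean normalized count (log axis). Detected genes are in grey, with the 7 genes marked and the median of detected genes as a dashed line. The vertical axis is cut, and detected genes with a larger spread, such as Lum at 2.07, are not shown. The Spred genes lie at 0.20 or lower and the Sprouty genes at 0.31 or higher, with Spry1 plotted although it missed the minimum.

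Pairs of libraries were compared gene by gene with a two-sided exact binomial test on the recovered reads, Benjamini-Hochberg adjusted over every gene for which the pair held 10 reads or more. Such a test covers counting error only and treats each read as a separate molecule, so a call means that 2 libraries differ and says nothing about a treatment. Between replicates 1 and 2, 6 of the 7 genes passed an adjusted p of 0.05, against 69.1% of 14771 genes tested. Spry1, Spry2, Spry3, Spred1 and Spred2 were higher in replicate 2, as were 36.0% of genes, and Spry4 was lower, as were 33.1%. Between replicates 1 and 3, 3 of 7 passed, against 52.0% of 14316 genes, and Spry1, Spry2 and Spry4 were higher in replicate 3, as were 26.5% (25.5% were lower). Between replicates 2 and 3, 2 of 7 passed, against 62.6% of 14344 genes, with Spry4 higher and Spred1 lower in replicate 3, against 30.5% and 32.1% of genes. Calls with a difference over 2-fold numbered 1, 2 and 1 of 7 in these pairs, against 20.3%, 9.27% and 16.4%. Only Spry4 passed in all 3 pairs, as did 30.0% of 13717 genes. With so many genes called, these counts are no result about the members, and the same holds for the counts of the gene lists given below.

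The sizes of the differences are given for Spry1, Spry2, Spry4 and Spred3. Spry2 was 1.72-fold higher in replicate 2 than in replicate 1 (95% interval 1.48 to 2.00, exact binomial test, adjusted p = 4.00e-13). It was 1.65-fold higher in replicate 3 than in replicate 1 (1.39 to 1.95, exact binomial test, adjusted p = 1.33e-08). Replicates 2 and 3 had a ratio of 0.956 for Spry2 (0.830 to 1.10), which includes no difference. Spry1 showed the same arrangement with wider intervals, 6.00-fold higher in replicate 2 than in replicate 1 (2.35 to 19.6, exact binomial test, adjusted p = 1.55e-05) and 6.01-fold higher in replicate 3 (2.22 to 20.3, exact binomial test, adjusted p = 0.000147). Spry4 in replicate 2 was 0.722 times its level in replicate 1 (0.594 to 0.877, exact binomial test, adjusted p = 0.00145). It was 2.10-fold higher in replicate 3 than in replicate 1 (1.78 to 2.50, exact binomial test, adjusted p = 8.16e-18). Against replicate 2 it was 2.91-fold higher in replicate 3 (2.44 to 3.48, exact binomial test, adjusted p = 2.27e-34). Spred3 passed in none of the pairs, and its ratios of 1.04 (0.949 to 1.14), 0.976 (0.875 to 1.09) and 0.937 (0.844 to 1.04) all had intervals that include no difference. Of the same 13717 genes, 16.4% likewise passed in none.

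Counted as standing more than 2-fold from both other replicates, Spry1 was low in replicate 1 and Spry4 was high in replicate 3. The same was true of 1.97% of genes in the low direction for replicate 1 and of 1.28% in the high direction for replicate 3. None of the 7 genes stood apart in replicate 2, where 10.1% of genes did. In replicate 3 the leukocyte markers Ptprc, Tyrobp, Cd52 and Laptm5 were also highest as a sum, with 4.34, 8.46 and 62.8 normalized counts in replicates 1, 2 and 3, and none of the 4 was detected. Ptprc, the defining marker, had 2, 1 and 1 reads, and Tyrobp was at 0 in replicate 1. The part of such RNA in the level of Spry4 was not tested. In bulk RNA, a change in the number of cells that express a gene and a change in RNA per cell cannot be told apart.

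Other feedback inhibitors of the cascade were read beside the Sprouty and Spred genes, and all 6 were detected. Dusp6, a phosphatase of ERK, was measured at 242, 206 and 196 normalized counts, averaging 215 ± 24.6 (SD, n = 3). Its SD of log2 values, 0.16, was in the range of the Spred genes. Dusp4, a nuclear phosphatase of MAP kinases, had 46.0, 101 and 21.3 normalized counts, high in replicate 2 and low in replicate 3. Dusp5, its ERK-specific relative, had 291, 147 and 185. Il17rd, the membrane protein Sef that restrains FGF signaling, had 49.5, 92.3 and 40.3 normalized counts. It shared its lowest and highest replicates with Dusp4, Spred1 and Spred3. Errfi1 and Lrig1, inhibitors of EGF family receptors, had 1294, 1624 and 2240 and 1250, 1311 and 2400 normalized counts. Like Spry4 they were highest in replicate 3, though neither was lowest in replicate 2. Over these 6 genes the median SD of log2 values was 0.51, and 2 of 6 had a range of more than 2-fold, against 22.0% of detected genes. In the exact binomial tests, where 69.1%, 52.0% and 62.6% of all genes passed in the 3 pairs, 4 of 6 passed between replicates 1 and 2, 3 of them higher in replicate 2. Between replicates 1 and 3, 4 passed with 2 higher in replicate 3, and between replicates 2 and 3, 5 passed with 3 higher in replicate 3. Of all genes, 36.0%, 26.5% and 30.5% passed with a higher level in the later-numbered replicate of these pairs.

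**Figure D4:**
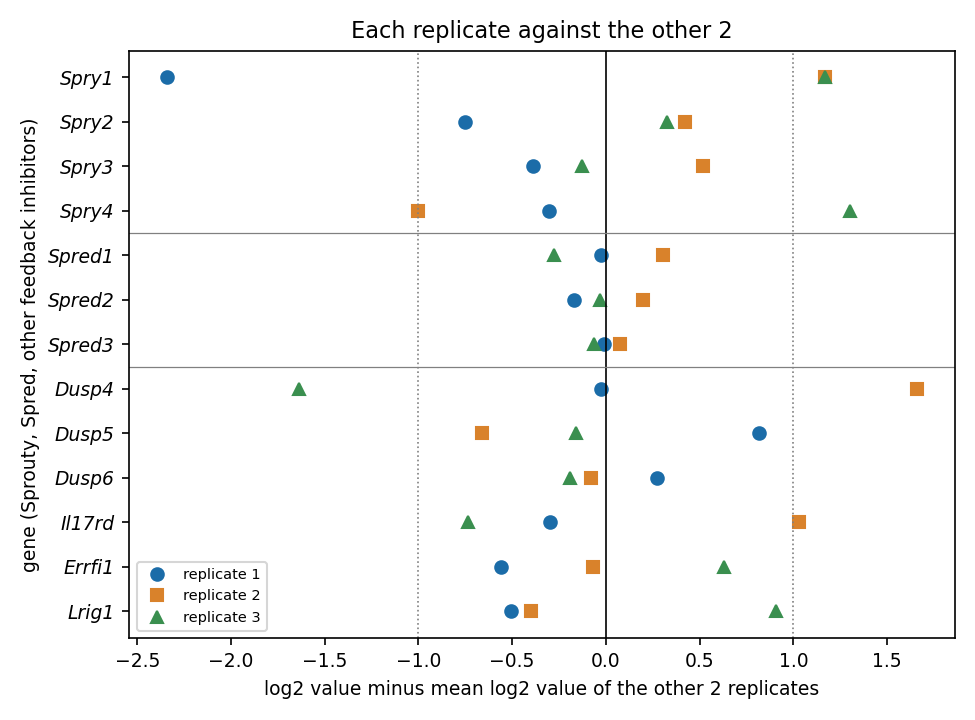
For each Sprouty, Spred and other feedback inhibitor gene, the log2(normalized count + 1) of a replicate minus the mean of the other 2 replicates, with dotted lines at 2-fold. Spry1 is far to the left in replicate 1 at -2.34, Spry4 far to the right in replicate 3 at 1.30, and the Spred genes stay within 0.31 of zero.

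Transcripts of 14 preset partners of Sprouty and Spred proteins were all detected, and their median was 738, 832 and 676 normalized counts in replicates 1, 2 and 3. Nf1, which encodes the neurofibromin that Spred proteins recruit, had 682, 856 and 602 normalized counts. Its highest and lowest replicates were those of Spred1 and Spred3. Cbl, the ubiquitin ligase bound by Spry2, had 30.4, 290 and 134 normalized counts, a 9.55-fold range. Its lowest replicate was 1, as for Spry1, Spry2, Spry3 and Spred2. Cblb, a relative of Cbl, had 795, 574 and 659 and did not share this order. Grb2, the adaptor that links receptors to the Ras activator SOS, had 1802, 1621 and 1683 normalized counts, and Tesk1, a kinase that binds Sprouty, had 862, 807 and 1153. Between replicates 1 and 2, 13 of the 14 genes passed the exact binomial test, against 69.1% of all genes. Of the 14, 8 passed with a higher level in replicate 2, against 36.0%. Between replicates 1 and 3, 9 passed, against 52.0%, and 5 passed with a higher level in replicate 3, against 26.5%. Between replicates 2 and 3, 12 passed, against 62.6%, and 4 passed with a higher level in replicate 3, against 30.5%. Calls with a difference over 2-fold numbered 3, 2 and 2 of 14 in these pairs, against 20.3%, 9.27% and 16.4% of all genes.

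Among the receptors upstream, 8 of 10 were detected. Fgfr1 had 4067, 3801 and 4364 normalized counts and Pdgfrb, the PDGF receptor of fibroblasts, 2894, 2942 and 3129, with ranges of 1.15-fold and 1.08-fold. Egfr had 1758, 1361 and 1796 normalized counts. Kit had 0 reads in every library, and the limit of 3 reads that a count of 0 allows corresponds to 2.61, 2.11 and 3.56 normalized counts in replicates 1, 2 and 3, and Fgfr4 had 0, 1 and 1 reads. In these receptors 5, 4 and 7 of the 8 tested genes passed between replicates 1 and 2, 1 and 3, and 2 and 3, against 69.1%, 52.0% and 62.6% of all genes. Those that passed with a higher level in the later-numbered replicate were 1, 4 and 7, against 36.0%, 26.5% and 30.5% of all genes. Fgfr3 was the least even receptor, with 99.0, 46.5 and 115 normalized counts, and Met had 234, 131 and 228. The median SD of log2 values was 0.24 over the 8 detected receptors.

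Transcription of Sprouty genes is itself known as an ERK output, and 10 other output genes were read beside them. All 10 were detected, 6 had a range of more than 2-fold, against 22.0% of detected genes, and 7 were lowest in replicate 2, against 37.3%. Their median SD of log2 values was 0.68, with Myc the steadiest at 1309, 1257 and 1286 normalized counts and Fosl1 next at 2030, 1660 and 1761. Etv4 and Etv5, transcription factors of the PEA3 group, had 284, 334 and 142 and 285, 163 and 207 normalized counts. Phlda1 had 4607, 1787 and 3690, and Epha2 had 4186, 1526 and 7121 normalized counts, lowest in replicate 2 and, for Epha2 as for Spry4, highest in replicate 3. Ccnd1, which encodes cyclin D1, had 5962, 8059 and 6916 normalized counts. Its lowest replicate was 1 and its highest 2, as for Spry2, Spry3 and Spred2. Egr1, an immediate early gene, was low at 57.3, 16.2 and 30.8. In the exact binomial tests 9, 8 and 8 of 10 passed between replicates 1 and 2, 1 and 3, and 2 and 3, of which 3, 2 and 5 were higher in the later-numbered replicate. Of all genes, 69.1%, 52.0% and 62.6% passed, and 36.0%, 26.5% and 30.5% passed with a higher level in the later-numbered replicate.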

How the data were processed

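RNA-seq was performed by the authors on 3 libraries, replicates of 1 condition. Adapters were filtered with ea-utils, 50 bp single-end reads of a stranded mRNA kit were aligned to mm10 with TopHat, and unique reads were counted per gene with HT-Seq count. The annotation, the strand setting and the DESeq version are not given in the sources used here. The signal deposited per gene is a normalized count, the reads divided by 1 size factor per library. Another 3 columns matched no sample and were left out.

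In each library 100% of values came out as whole reads (within 0.05 reads), so reads were recovered, with size factors of 1.15, 1.42 and 0.844. A pseudocount of 1 was used for log2 values. Exact binomial tests took the expected share from the size factors, with a threshold of 0.05 on Benjamini-Hochberg adjusted p. TMM factors came from edgeR 4.0.16 in R 4.3.3, and the rest was done in Python 3.11.15 (pandas 2.3.3, numpy 2.4.6, scipy 1.17.1). The tests were run on simulated Poisson counts as a check of the code. These counts held no variation between replicates beyond counting error, unlike the libraries here, so the check does not cover such variation. Lengths and positions came from GENCODE M21 (GRCm38), and upstream sequences from RefSeq (GRCm38.p6), where 5 of 7 genes matched. Intervals cover counting error only, as reads carried no molecular identifiers.

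The genes named were the 7 members, the genes of preset lists (other feedback inhibitors, partners, receptors, ERK output genes and cell type markers) and, for each detected member, the 3 detected genes with the nearest centred log2 profile and a mean within 2-fold. Those of Spred3 are not reported here. Members and lists were chosen with earlier results of these data known. Alternatives were other scalings, pseudocounts, minimums, fold limits and lengths and each replicate left out. The longest transcript and left-out replicates for the ratio of the families were added after the data were seen.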

Additional observations from a re-analysis of the deposited data

How the results depend on the processing

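No paired analysis was possible because the libraries belong to 1 condition and no other group shares their numbers. The means of the 7 genes and the 6 list medians moved by less than 1 SD under equal totals and TMM scaling. That they did so without each replicate says nothing about stability, since a mean of 3 values cannot move that far. Divided by no length, the order began with Spred3 at rank 1, Spred1 at 2, Spred2 at 3 and Spry2 at 4. With the longest transcript Spred3 took rank 1 and Spry2 rank 2, and the ratio of Spred to Sprouty became 1.68 in place of 1.33, which follows from the lengths. With equal totals, 4 members differed between replicates 2 and 3 in place of 2, with Spred2 (exact binomial test, adjusted p = 0.023) and Spred3 (0.017) added, Spred1 passed between replicates 1 and 3 (exact binomial test, adjusted p = 0.011), and the ratio of Spry1 between replicates 2 and 3 turned direction with an adjusted p of 0.924 by the same exact test. The deposited size factors and TMM gave the same member calls. A required difference of more than 2-fold left 1 call between replicates 1 and 2 and 1 between replicates 2 and 3, by construction. At a 1.5-fold limit 2 members stood apart in replicate 1, with a mean of at least 100 required 0 did, and at a 3-fold limit 0 stood apart in replicate 3. Between 1 and 2 members had a range of more than 2-fold with each replicate left out, 1 without replicate 1 and 1 without replicate 3. Few reads limited the precision for Spry1, with 5, 37 and 22.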

Other observations

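Genes with the most similar profile over the 3 replicates were listed for each detected member, by Euclidean distance between centred log2 values among genes with a mean within 2-fold. With only 3 libraries many genes lie close to any profile, so the lists are a description. Few genes lie within a fixed distance of a profile with a large spread, so the number of neighbours is no separate trait of a member. Spry4, the detected member with the largest spread, had the fewest neighbours, with 2 of 3488 candidates within a distance of 0.1. These were Cd34, a surface marker of a dermal fibroblast subset and of vascular progenitors, with 259, 187 and 591 normalized counts in replicates 1, 2 and 3, and Nrcam, a cell adhesion gene, with 214, 167 and 494. Clip4 followed at a distance of 0.119, with 190, 123 and 364 normalized counts. For Spry2, 28 of 3929 candidates lay within 0.1, and Zfp507, Rnf31 and Kdm4b were the nearest. Around Spry3, 29 of 1858 candidates lay as close, led by 9230114K14Rik, Zfp85 and Aldh1a1. Spred1, Spred2 and Spred3 had 144, 196 and 217 candidates within 0.1, and the nearest genes of Spred1 and Spred2 were Ldhb and Gigyf1.

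The 3′ ends of the transcripts were searched for TATTTAT, a heptamer of AU-rich elements, which are known from unstable mRNAs. Of the 6 members with a transcript in the reference used, all had at least 1 match in the annotated 3′ UTR, as had 28.1% of 20677 genes. Spry4 had 4 matches, Spred1 3, Spry1 and Spry2 2 each, and Spred2 and Spred3 1 each. Their 3′ UTRs ran from 856 bases in Spry2 to 4330 bases in Spred1, and the median over all genes was 1016, so longer sequence was searched in 5 of the 6. Whether these transcripts were unstable was not measured.

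Sequence of read length was shared with other genes in 2 members, and Spry3 was not searched. Of the windows of 50 bases along the longest coding transcript of Spry1, compared on both strands, 19.4% also occurred in Gm42922, and along Spred2 1.41% occurred in Gm14612, which had 0 reads in every library. Windows along the longest coding transcripts of Spry2, Spry4, Spred1 and Spred3 occurred in no transcript of another gene. Other transcripts of these genes, such as those of Spred3 that overlap Ggn, were not searched.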
